A study of Mus musculus with 6 samples.

Results

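The 10 genes described here cut, transport, load or present peptides in the major histocompatibility complex (MHC) class I pathway, or control it: Psmb8, Psmb9, Psmb10, Psme1, Psme2, Tap1, Tap2, Tapbp, B2m and Nlrc5. They were listed by name, and all 10 have at least 1 row with a single gene symbol in the deposited table, among 19938 genes in all. Of several rows of a gene, the one with the highest mean level across the 6 arrays was used. RNA of sorted mouse bone marrow cells was hybridised to 3 arrays labelled p65 wild-type and 3 labelled p65 knockout, without technical replicates; whether each sample is 1 mouse or a pool is not given, so p-values measure the spread between these samples. The sort kept cells that carry c-kit and Sca-1 but neither Flk2 nor lineage markers, which holds the blood-forming stem cells and their earliest descendants. The protein p65, also called RelA, is one of the NF-κB transcription factors. The series title places the deletion in the hematopoietic compartment; the allele, the driver of the deletion, the strain, and the age and sex of the mice are not named in the labels. The design implies 1 comparison, knockout against wild-type.

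Cells display fragments of their own proteins on MHC class I molecules. The proteasome cuts proteins into peptides, and in the immunoproteasome the catalytic subunits encoded by Psmb8, Psmb9 and Psmb10 take the places of those encoded by Psmb5, Psmb6 and Psmb7. Psme1 and Psme2 encode the alpha and beta chains of a ring-shaped proteasome activator. Tap1 and Tap2 form the transporter that moves peptides into the endoplasmic reticulum (ER), where the protein tapasin, from Tapbp, bridges that transporter and the class I heavy chain. B2m encodes beta-2-microglobulin, the light chain of every class I molecule. Nlrc5 encodes a transcriptional co-activator of class I genes, and most genes of this pathway are known to respond to interferon gamma.

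Per RefSeq's gene table for the mouse assembly GRCm38.p6, Psmb9, Tap1, Psmb8 and Tap2 are consecutive protein-coding genes on chromosome 17, and Psme1 and Psme2 are separated by 1 coding gene, Emc9, on chromosome 14. Promoter windows were found in RefSeq (GRCm38.p6) for 8 of the 10 genes, all but Tap2 and Nlrc5, and were searched on both strands over the 250 bases before the annotated start. The motifs were the core of the interferon-stimulated response element, which is GAAA followed after any 2 bases by GAAA, the gamma-activated element TTCNNNGAA, a κB site, which is GGG followed after any 3 bases by TTCC, the short element TGACG known from the X2 box of class I promoters, and the box CCAAT. The 3 windows shown hold the interferon and κB letters of these genes or are shared by 2 of them; matched letters are in capitals, those of the κB site and CCAAT in B2m being matches on the opposite strand, and no matches overlap. The windows are chr17:34197945-34198194 on the plus strand for Psmb8, chr17:34187306-34187555 on the plus strand for Tap1 and chr2:122147437-122147686 on the plus strand for B2m.
Psmb8: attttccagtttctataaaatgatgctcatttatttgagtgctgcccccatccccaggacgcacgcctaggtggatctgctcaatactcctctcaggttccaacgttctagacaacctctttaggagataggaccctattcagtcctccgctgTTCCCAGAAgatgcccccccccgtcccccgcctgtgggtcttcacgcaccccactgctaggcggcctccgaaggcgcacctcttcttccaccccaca
Tap1: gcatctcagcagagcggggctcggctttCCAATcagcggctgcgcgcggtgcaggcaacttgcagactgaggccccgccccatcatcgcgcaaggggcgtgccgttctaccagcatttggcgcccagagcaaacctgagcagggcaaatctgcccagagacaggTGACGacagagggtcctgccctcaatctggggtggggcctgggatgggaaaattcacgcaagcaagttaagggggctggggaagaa
B2m: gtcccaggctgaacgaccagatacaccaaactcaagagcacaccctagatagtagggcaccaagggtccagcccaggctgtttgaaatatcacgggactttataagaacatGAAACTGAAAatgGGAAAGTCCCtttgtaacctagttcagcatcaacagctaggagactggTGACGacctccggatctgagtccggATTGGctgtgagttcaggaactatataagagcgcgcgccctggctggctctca
Psmb9 is read from the opposite strand, and its window shares 225 bases with that of Tap1, so its TGACG and CCAAT matches are the same letters. The interferon element and the κB site were each found before the start of B2m alone, at positions -139 and -126, against 2.98% and 4.65% of all 32851 promoter windows. Psme1 has the interferon element at position 10 past its start, outside the searched stretch. The gamma-activated element was found in Psmb8 alone, where 7.02% of all windows hold it. TGACG was found in B2m, Psmb9, Psme2 and Tap1 (17.8% of all windows), and CCAAT in B2m, Psmb9, Tap1 and Tapbp (33.9% of all windows). The window of Psmb10 held no match to these 5 motifs. These are matches of letters in 1 window per start, and binding was not measured.

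The targeted gene was examined first. Rela had log2 values of 7.52, 7.89 and 7.92 in wild-type arrays against 7.33, 7.48 and 7.35 in knockout arrays. All knockout values lay below all wild-type values, as was the case in 15.4% of all genes. The difference of -0.39 (SE 0.16) missed the threshold (limma adjusted p = 0.209), and Rela passed without wild-type replicate 1 (adjusted p = 0.04). The labels do not say where its row lies relative to the deleted part. Median log2 signals ran from 5.72 to 5.98 per array and were lower in each knockout array than in each wild-type array. Wild-type replicate 1 stood apart, with a correlation to the other arrays of 0.951 to 0.963 over all genes, against a highest value of 0.994 between knockout replicates 2 and 3, so each result is also given without it where that matters. Of the genes of the sort, Kit averaged 10.43 in wild-type and 10.12 in knockout, and Flt3, which encodes the Flk2 that the sort excludes, averaged 7.61 and 7.67, a level above 75.4% of genes. Ly6a, the Sca-1 gene, was not analysed here. Cd34, a progenitor marker, averaged 10.76 and 10.80.

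Limma called none of the 10 genes (adjusted p under 0.05), where it called 0.818% of all genes (0.687% as higher) and 1.49% of genes of like signal. With a median log2 fold change of 0.43, knockout over wild-type, 9 of the 10 were on the positive side, as were 45.9% of all genes and 90.7% of genes of like signal. The median over all genes was -0.04, and it was 0.33 over the genes of like signal, which are the 3556 genes whose mean level lay within the range spanned by the 10. Without wild-type replicate 1 the medians were 0.26 for the 10 genes, 8 of them positive, and 0.17 for genes of like signal. Without replicate 1 of both groups they were 0.21, with 6 of the 10 positive, and 0.18. At an unadjusted limma p under 0.05, with all arrays, 5 of the 10 were higher and 0 lower, beside 13.8% of all genes that were higher and 37.2% of the genes within that range of levels. The knockout values of 6 genes lay wholly above the wild-type values, a separation seen in 19.2% of all genes and in 51.9% of genes of that range. These shares lie above those of all genes and nearer to those of genes of like signal. In bulk samples a change in the share of a cell type and a change in RNA per cell cannot be told apart, and markers of granulocyte and monocyte progenitors rose in the same arrays (6 of 7; values are given with the other marker lists).

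**Figure D1:**
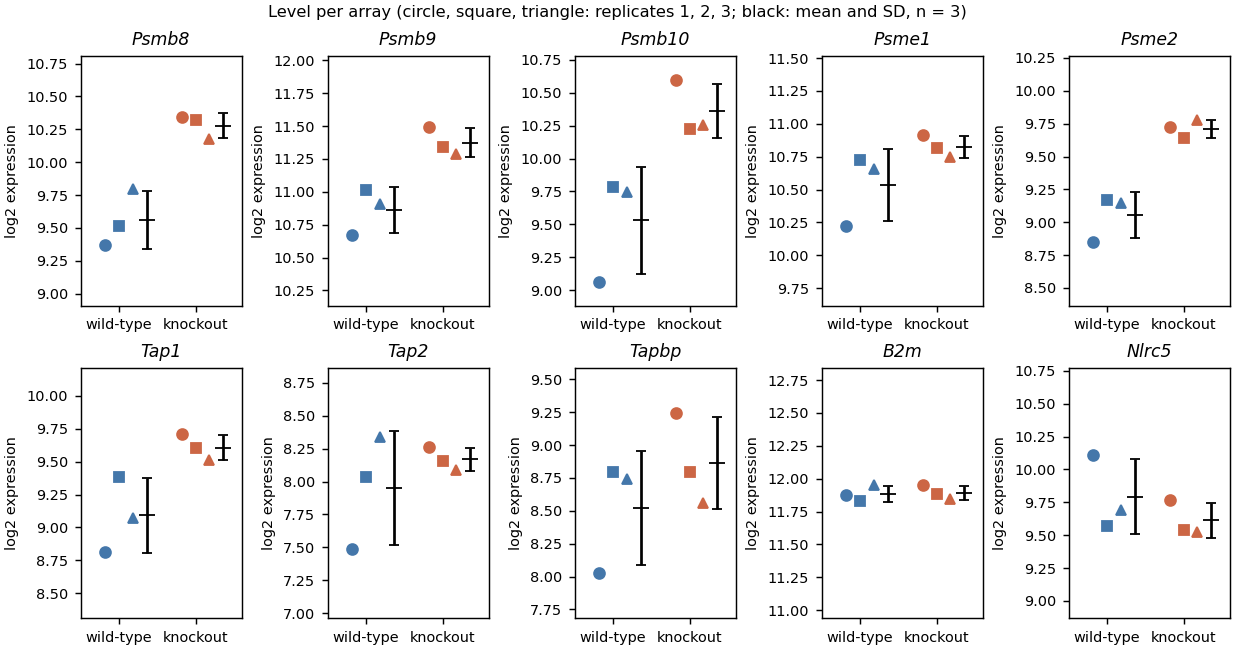
Log2 expression of each of the 10 genes in 3 wild-type (blue) and 3 knockout (orange) arrays, with mean and SD in black (n = 3); every panel spans the same number of log2 units. Psmb8, Psmb9, Psmb10, Psme1, Psme2 and Tap1 have no overlap between groups, and B2m hardly varies.

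Of the 10 genes, the catalytic subunit genes Psmb10 and Psmb8 had the highest fold changes. Psmb8 (probe set 10444258) had log2 values of 9.37, 9.52 and 9.80 in wild-type arrays against 10.35, 10.32 and 10.17 in knockout arrays. Its groups did not overlap, and its knockout arrays lay closer together (SD 0.09) than its wild-type arrays (SD 0.22, n = 3 each). The log2 fold change was 0.72 (95% interval 0.36 to 1.08), or 1.65-fold, with a limma adjusted p of 0.0793.

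Psmb10 (probe set 10581378) had log2 values of 9.06, 9.78 and 9.75 in wild-type arrays against 10.60, 10.22 and 10.26 in knockout arrays. Wild-type replicate 1 was the lowest array and knockout replicate 1 the highest, and the other 4 arrays did not overlap either. Its log2 fold change was 0.83 (95% interval 0.32 to 1.34), or 1.78-fold, with a limma adjusted p of 0.113. Without those 2 arrays the log2 fold change was 0.48 (limma adjusted p = 0.107).

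Psmb9 (probe set 10450145) had log2 values of 10.67, 11.01 and 10.90 in wild-type arrays against 11.50, 11.34 and 11.28 in knockout arrays. All 3 knockout arrays were above all wild-type arrays, by a margin smaller than for Psmb8. The log2 fold change was 0.51 (95% interval 0.17 to 0.85), or 1.43-fold, with a limma adjusted p of 0.13.

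The activator chains, which work as one ring, gave fold changes of different size. Psme2 (probe set 10420030) had log2 values of 8.85, 9.17 and 9.14 in wild-type arrays against 9.72, 9.64 and 9.78 in knockout arrays, with a wide gap between the groups. The log2 fold change of Psme2 was 0.66 (95% interval 0.32 to 0.99), or 1.58-fold, with a limma adjusted p of 0.0809. Another row that the annotation assigns to both Psme2 and Psme2b, and that was left out of the tests for that reason, had a log2 fold change of 0.78. Psme1 (probe set 10415282) had log2 values of 10.22, 10.72 and 10.65 in wild-type arrays against 10.91, 10.82 and 10.75 in knockout arrays. Its groups were separated only narrowly, between wild-type replicate 2 (10.72) and knockout replicate 3 (10.75), and the log2 fold change of 0.29 had an interval of -0.09 to 0.68 (limma adjusted p = 0.319). It was 0.14 without wild-type replicate 1 and 0.09 without replicate 1 of both groups. Whether Psme1 and Psme2 differ from each other in their change was not tested.

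Without knockout replicate 1 the log2 fold changes of the 5 proteolysis genes were 0.68 for Psmb8, 0.45 for Psmb9, 0.71 for Psmb10, 0.25 for Psme1 and 0.65 for Psme2. Knockout replicates 2 and 3 alone still lay above all wild-type arrays for each of the 5, and for Tap1. That makes 6 of 10, beside 23.2% of all genes and 58.3% of genes within the same range of levels. None of the 10 passed limma in that fit (lowest adjusted p = 0.318), where 0.110% of all genes did, and 4 of the 10 were higher at an unadjusted p under 0.05, as were 9.13% of all genes and 23.5% of genes of like signal. Without wild-type replicate 1 instead, Psmb8 (log2 fold change 0.62, limma adjusted p = 0.042) and Psme2 (0.55, limma adjusted p = 0.0325) passed and the other 8 did not, where 4.66% of all genes passed, 3.28% as higher (9.08% of genes of like signal). With both replicates left out none of the 10 passed (0.196% of all genes did), nor with the replicate number as a block (1.87% did). Psmb8 and Psme2 also passed when the dimmest of 3 equal groups of genes was left out (3.19% of the genes kept passed as higher, and 5.48% of those of like signal), and with Psmb10 when arrays were weighted by their fit (5.60% of all genes and 15.2% of those of like signal passed as higher).

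**Figure D2:**
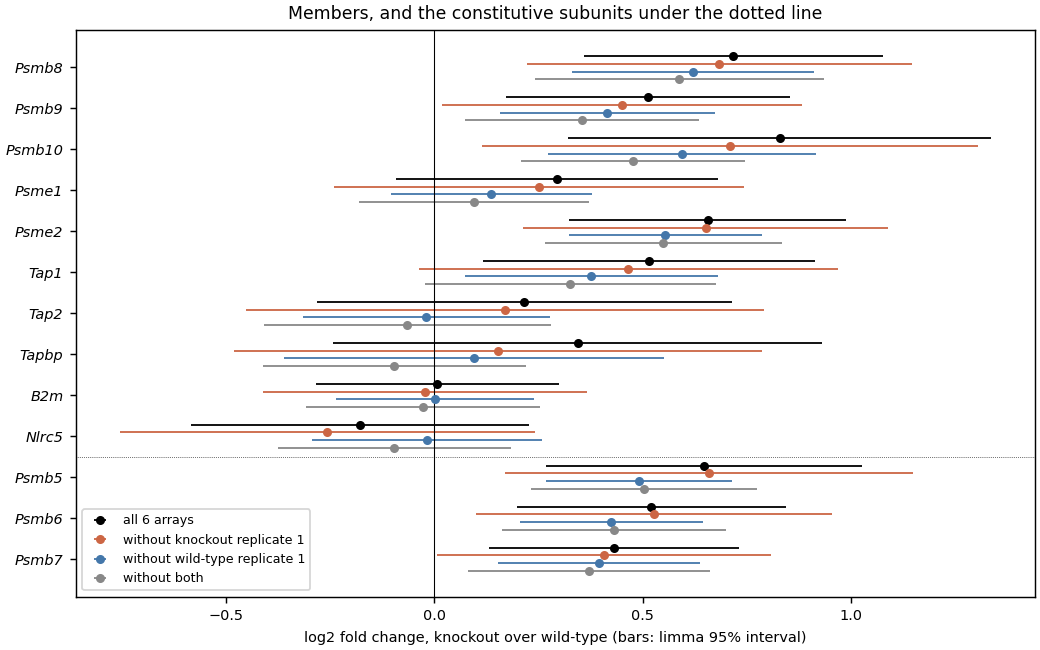
Log2 fold change, knockout over wild-type, with limma's 95% interval, for the 10 genes and for the constitutive subunits Psmb5, Psmb6 and Psmb7 under the dotted line, using all 6 arrays and without replicate 1 of either or both groups. Psmb8 and Psme2 move little between the 4 fits, while Tap2 and Tapbp come down to about 0.

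The transport and loading genes were less uniform. Tap1 (probe set 10444244) had log2 values of 8.81, 9.39 and 9.07 in wild-type arrays against 9.71, 9.60 and 9.51 in knockout arrays. Its groups did not overlap, and the log2 fold change was 0.52 (95% interval 0.12 to 0.91, limma adjusted p = 0.161), close to that of Psmb9 (0.51). Tap1 and Psmb9 share the promoter stretch shown above, and whether that bears on their values was not tested. Tap2 (probe set 10444268), the partner chain, had log2 values of 7.48, 8.03 and 8.34 in wild-type arrays against 8.26, 8.16 and 8.09 in knockout arrays. Wild-type replicate 3 exceeded all knockout arrays. The log2 fold change of Tap2 was 0.22 (95% interval -0.28 to 0.71) and turned to -0.02 without wild-type replicate 1 and to -0.07 with cyclic loess normalization.

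Tapbp (probe set 10444068) had log2 values of 8.02, 8.80 and 8.75 in wild-type arrays against 9.25, 8.79 and 8.56 in knockout arrays. Wild-type replicate 1 was the lowest array and knockout replicate 1 the highest, while the other 4 arrays overlapped. Over all arrays the log2 fold change of Tapbp was 0.34 (95% interval -0.24 to 0.93), and without both of those arrays it was -0.10. The 2 further rows that name Tapbp together with the ribosomal protein gene Rps3a1 had log2 fold changes of 0.01 and 0.03 and cannot be assigned to either gene.

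B2m (probe set 10475414) had log2 values of 11.88, 11.83 and 11.95 in wild-type arrays against 11.95, 11.88 and 11.84 in knockout arrays. The groups overlapped fully, with SDs of 0.06 and 0.05 (n = 3 each), and the log2 fold change of 0.01 had an interval of -0.29 to 0.30. Its signal is near the top of the scale. Among the 100 genes of highest mean level, B2m included, the median log2 fold change was 0.09, against 0.30 in the brightest of 3 equal groups of genes. In those 100 genes the log2 fold changes ran from -0.08 to 1.07. Whether the level of signal bears on the value of B2m was not tested. The promoter window of B2m, shown above, is the one that holds both the interferon element and the κB site, and whether these bear on its value was not tested.

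**Figure D3:**
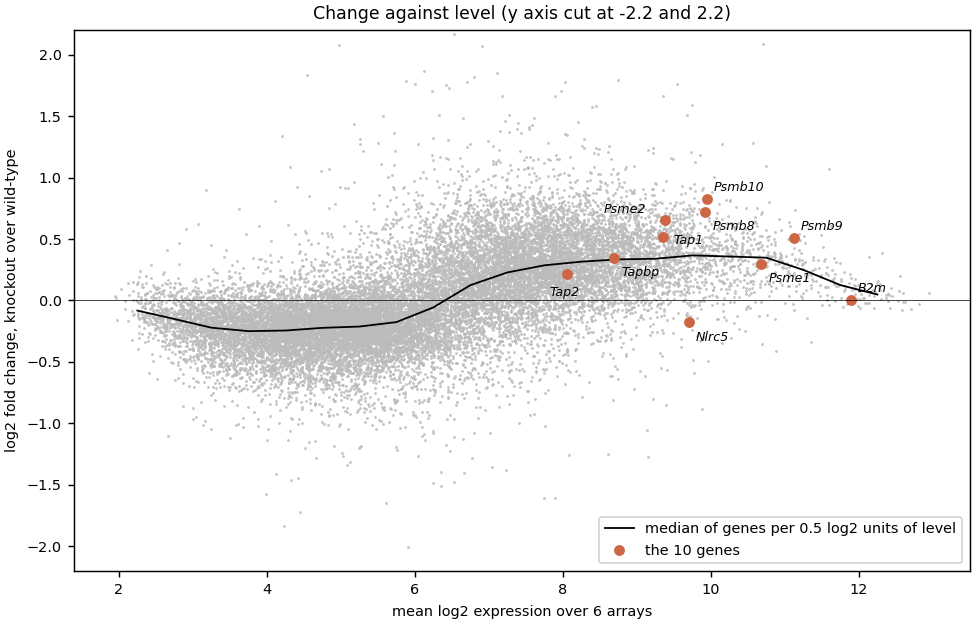
Log2 fold change, knockout over wild-type, against mean log2 expression over 6 arrays for all 19938 genes (grey; 18 lie beyond the cut axis), with the median of genes per step of level as a black line and the 10 genes in orange. Psmb10, Psmb8, Psme2, Psmb9 and Tap1 lie above the line, Psme1, Tapbp, Tap2 and B2m on or near it, and Nlrc5 below it.

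Change depended on level across the whole table, and all 10 genes fall into the brightest of the 3 equal groups. Quantile and cyclic loess normalization, which reduce such a trend, brought the median of the 10 genes to 0.16 and 0.14 and that of genes in their range to 0.09 and 0.04. The catalytic subunits kept positive values under cyclic loess: 0.56 for Psmb10, 0.45 for Psmb8 and 0.30 for Psmb9, with limma adjusted p from 0.107 to 0.2. Psme2 had 0.36 and Tap1 0.22 in that fit, Psme1 and Tapbp had 0.06 and 0.02, and B2m and the kept row of Nlrc5 had -0.16 and -0.46.

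Nlrc5 was measured by 19 rows, and the row kept by the rule did not run with most of them. That row (probe set 10574100), the one of highest mean level, had log2 values of 10.11, 9.57 and 9.69 in wild-type arrays against 9.77, 9.54 and 9.53 in knockout arrays. The groups overlapped, and its log2 fold change was -0.18 (95% interval -0.59 to 0.23; limma adjusted p = 0.525). Over the 19 rows, 16 had a positive difference and 3 a negative one, with a range from -0.54 to 0.79 and a median of 0.38. Averaging the rows gave 0.31 (limma adjusted p = 0.309), so the sign given to Nlrc5 turns with the choice of row.

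The rows of Nlrc5 also disagreed beyond that one. In 4 rows all knockout arrays were above all wild-type arrays, and in 2 rows all were below, beside 19.2% and 15.4% of all genes. The row with the highest difference had log2 values of 7.30, 6.67 and 7.29 in wild-type arrays against 8.11, 7.83 and 7.69 in knockout arrays. A row with the opposite pattern had 7.95, 8.30 and 7.83 in wild-type arrays against 7.66, 7.62 and 7.67 in knockout arrays. None of the 19 rows passed when each single-symbol row of the table was tested on its own with limma, and 7 had an unadjusted p under 0.05. These 7 did not share a direction: the row with the opposite pattern was lower (-0.38), and the others were higher. In the fit over genes, 13.8% of all genes were higher at an unadjusted limma p under 0.05, as were 37.2% of genes in the level range of the 10. Wild-type replicate 1 was the lowest array in 13 rows, and knockout replicate 1 the highest in 9, beside 39.0% and 9.32% of all genes. Among genes in the level range of the 10 these shares were 89.5% and 18.8%. Mean levels of the 19 rows ran from 6.24 to 9.70, partly below that range. Without those 2 arrays, 14 rows stayed positive and the median was 0.15. Which exons the rows cover is not given in the annotation used here, and which array model was scanned is not settled, so what each row measures within Nlrc5 is unknown.

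**Figure D4:**
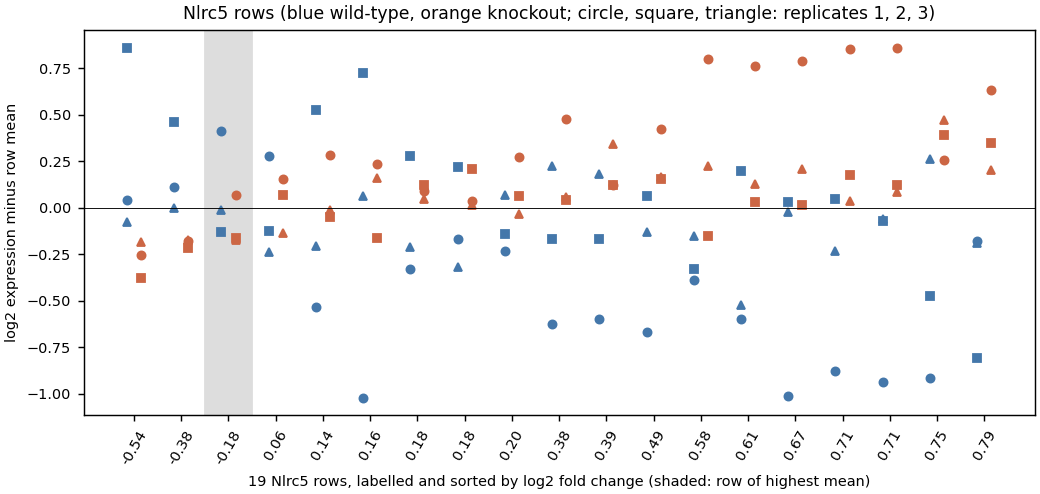
Log2 expression of the 19 Nlrc5 rows relative to each row's mean over 6 arrays, ordered by log2 fold change (the label of each row), with wild-type in blue, knockout in orange and the row of highest mean shaded. Most rows have low values in wild-type replicate 1 (blue circles), while the shaded row has that array at the top.

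The immunoproteasome subunits were then set against the constitutive subunits whose places they take. Psmb5 had log2 values of 9.96, 10.46 and 10.40 in wild-type arrays against 10.89, 10.91 and 10.95 in knockout arrays, with no overlap and a log2 fold change of 0.65 (SE 0.17). Psmb6 had a log2 fold change of 0.52 (SE 0.14) and Psmb7 of 0.43 (SE 0.13); none of these 3 passed limma (adjusted p from 0.103 to 0.138). As with Psmb8 and Psme2, Psmb5 passed without wild-type replicate 1 (adjusted p = 0.0393) and with array weights (0.0212), and Psmb6 passed with array weights (0.0322). The difference between Psmb8 and Psmb5 within an array, in log2 units, was -0.59, -0.94 and -0.60 in wild-type arrays against -0.54, -0.59 and -0.78 in knockout arrays. These overlapped, and the change was 0.07 (SE 0.14), with p = 0.6 by an exact permutation test, two-sided. For Psmb9 and Psmb6 the change was -0.01 (SE 0.07, exact permutation p = 0.9). For Psmb10 and Psmb7 the within-array difference was -0.98, -0.29 and -0.49 in wild-type arrays against 0.00, -0.30 and -0.27 in knockout arrays. It changed by 0.40 (SE 0.23, exact permutation p = 0.2), and by 0.10 without replicate 1 of both groups. Adjusted over the 3 pairs the p-values were 0.6 to 0.9, and 3 against 3 arrays cannot give an unadjusted exact p under 0.1, so these tests do not settle whether the subunits changed unequally.

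Partner genes of the pathway were read from lists. The list of constitutive subunits and partners holds Psmb5, Psmb6, Psmb7, the assembly factor gene Pomp and the activator genes Psme3 and Psme4. All 6 had positive differences (median 0.41), 5 without overlap between groups, and 0 passed limma. Of 8 ER folding and loading genes, all 8 were positive (median 0.61), all 8 without overlap and with an unadjusted limma p under 0.05, and 0 passed over all genes. Hspa5, the gene of the ER chaperone BiP, changed by 0.76 log2 units (limma adjusted p = 0.0688) and Pdia3, whose product sits in the peptide loading complex beside tapasin, by 0.71 (limma adjusted p = 0.0863). Without wild-type replicate 1, 2 genes of the ER list passed, Hspa5 among them. Of 6 listed cytosolic peptidase genes 4 were measured, with a median of 0.57 and 0 passing; Thop1, the gene of a peptidase that trims and destroys free peptides, had 0.68 and Tpp2 0.73.

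Among 11 genes of class I and class II transcription 1 rose and 0 fell. That was Irf8, a transcription factor gene of the interferon regulatory factor family that is active in monocyte and dendritic precursors. Irf8 had log2 values of 6.00, 6.40 and 6.65 in wild-type arrays against 8.23, 8.15 and 7.66 in knockout arrays, a 3.17-fold rise (limma adjusted p = 0.0213). The call on Irf8 was kept without wild-type replicate 1 and lost without any other single array (adjusted p from 0.0504 to 0.152). The median of that list was 0.19. Of 10 measured interferon receptor and signalling genes none passed limma with all arrays, and 3 had an unadjusted p under 0.05; the receptor genes Ifngr1 and Ifngr2 had log2 fold changes of 0.86 (limma adjusted p = 0.0653) and 0.98 (limma adjusted p = 0.0903). Ifngr1 passed with the replicate number as a block (adjusted p = 0.0488) and without wild-type replicate 1 (adjusted p = 0.0247). Nfkb1 was not analysed here. Of 4 measured NF-κB subunit genes none passed, 2 were lower without overlap (Rela and Relb, the latter at -0.30), and the median was -0.13.

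Knockout replicate 1 carried the highest value of the 6 arrays for 6 of the 10 genes, where it did so for 9.32% of all genes and 18.8% of genes in their range of levels. It exceeded the mean of the other 2 knockout arrays for all 10, as it did for 48.7% of all genes and 36.5% of genes in that range. The excess ran from 0.01 for Psme2 to 0.57 for Tapbp, with a median of 0.14. All 8 ER folding and loading genes had such an excess too (median 0.12), as had 2 of the 6 constitutive subunits and partners. Knockout replicate 1 also had the highest levels of interferon-stimulated genes. Over 17 measured genes of that list it exceeded the other knockout arrays by a median of 1.00, and the array means of the list were -0.58, -0.26 and -0.20 in wild-type arrays against 1.11, 0.13 and -0.20 in knockout arrays. The corresponding means of the 10 genes were -0.43, -0.09 and -0.07 in wild-type arrays against 0.33, 0.16 and 0.10 in knockout arrays, so the groups did not overlap and the excess of knockout replicate 1 was smaller. The part of that array's interferon-stimulated genes in the result was not tested, and the values without it are given above. All 17 genes had positive differences (median 0.68), as had 45.9% of all genes. In 7 the groups did not overlap, and 7 were higher at an unadjusted limma p under 0.05, beside 19.2% and 13.8% of all genes. Without knockout replicate 1 the median was 0.22 and 7 did not overlap, beside 23.2% of all genes. Of the 17 genes 1 passed as higher, beside 0.687% of all genes. That was Gbp3, a guanylate-binding protein gene, at 2.63-fold (limma adjusted p = 0.0444). The call was lost without any single array other than wild-type replicate 1 (adjusted p from 0.0588 to 0.231).

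**Figure D5:**
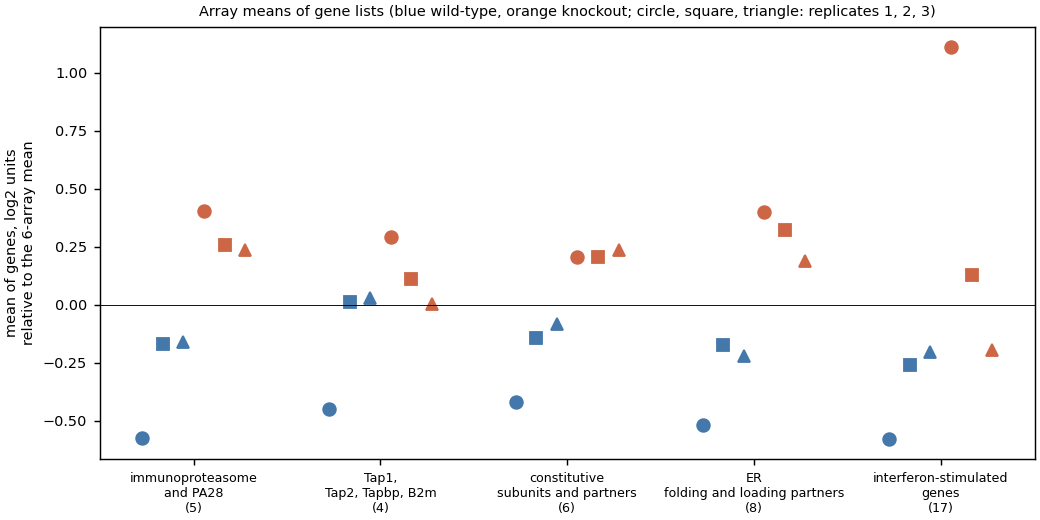
Mean over the genes of each list in every array, relative to each gene's mean over 6 arrays, in log2 units (blue wild-type, orange knockout; number of genes in brackets). Knockout replicate 1 (orange circle) is far above the others for the interferon-stimulated genes. The groups separate for the proteolysis genes, the constitutive list and the ER list alike, and only barely for the interferon-stimulated genes. They overlap for Tap1, Tap2, Tapbp and B2m.

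The genes whose pattern over the 6 arrays was most like the mean of the 10 were Lipa (Pearson r = 0.997), Nr3c1 (0.995), Trim25 (0.995), Gdap10 (0.993) and Rsl24d1 (0.992), out of 7713 other genes with an SD of at least 0.3. These are descriptions over 6 arrays that share the low wild-type replicate 1. Lipa, the gene of lysosomal acid lipase, had a log2 fold change of 0.56, and Trim25, which encodes a ubiquitin ligase of the antiviral response, of 0.73; neither passed limma.

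Markers of granulocyte and monocyte progenitors differed between the groups alongside the 10 genes: 6 of 7 rose, Elane 15.8-fold, and the list's array means ran from -1.26 to -0.91 in wild-type and from 0.91 to 1.20 in knockout. Elane, Ctsg, Ms4a3 and Prtn3 passed without any one array, while Mpo and Cebpe were lost without some (adjusted p up to 0.203 and 0.229, each without knockout replicate 1). Stem and progenitor markers ran the other way, with 1 of 6 measured (Hlf) lower past the threshold and array means of -0.06 to 0.53 in wild-type and -0.49 to -0.15 in knockout. Of 5 macrophage and monocyte markers Csf1r rose 3.27-fold, and of 8 dendritic markers H2-Ab1 rose 2.04-fold. Differences were positive for 4 of the 5 macrophage and monocyte markers (median 0.59). They were positive for only 3 of the 8 dendritic markers (median -0.15), so H2-Ab1 did not run with most of its list. The calls on H2-Ab1 and Hlf were lost without any single array other than wild-type replicate 1 (adjusted p up to 0.222 and 0.271), and that on Csf1r without wild-type replicate 3 (0.0634) or knockout replicate 1 (0.0632). The array means of the macrophage and monocyte list were -0.39 to -0.33 in wild-type and 0.22 to 0.57 in knockout, and those of the dendritic list overlapped. None of 7 T and NK cell, 7 neutrophil, 4 B cell or 2 erythroid markers passed limma. At an unadjusted limma p under 0.05 there were 4 lower T and NK cell markers, 1 higher and 2 lower neutrophil markers, no B cell marker and 1 higher erythroid marker. Of all genes, 13.8% were higher at that p. The T and NK cell markers fall in the dimmest and middle of 3 equal groups of genes. Median log2 fold changes there were -0.22 and -0.09. The neutrophil marker Cxcr2 was 2.21-fold higher (limma adjusted p = 0.0531) and passed without wild-type replicate 1 (0.0286) and with the replicate number as a block (0.0211), and the T cell marker Cd3d was called lower without wild-type replicate 1 (0.0492). The defining markers of mature cells had these mean log2 levels: Adgre1 averaged 3.72 in wild-type and 3.68 in knockout, Ly6g 4.05 and 3.58, Itgax 4.04 and 3.72 and Cd3e 6.12 and 5.91, and the difference of Adgre1 changed sign with the normalization. Other genes of these lists had higher signals, among them Cd79b (8.62 in wild-type and 8.81 in knockout), S100a8 (7.39 and 7.81), S100a9 (7.32 and 6.61) and Cd68 (6.82 and 8.04), which, like Cxcr2 and Cd3d, were chosen for mention after their values were seen. The part of these markers in the values of the 10 genes was not tested.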

How the data were processed

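The deposited table holds log2 expression, 1 column for each of 6 arrays. Per the submitters' processing notes, Expression Console from Affymetrix, Partek and RMA were used (versions not given), while the design text names another exon array program. The design text names a mouse exon array and the platform annotation used here is that of a mouse gene array; which was scanned was not settled, and row names rest on that annotation. RMA corrects background, normalizes between arrays and summarises probes, and array medians still differ in this table. Per the labels' protocols, RNA was amplified with a whole-transcriptome kit for small inputs, which can alter the range of signals. The number of arrays limits the precision.

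Of 35557 rows, 21789 have 1 symbol, 1621 several and 12147 none in the platform annotation; 0 symbols needed an update and 0 columns were unassigned. Single-symbol rows were used. The 2 groups were fitted in R 4.3.3 by limma 3.58.1 without covariates, with two-sided Benjamini-Hochberg adjusted p over 19938 genes at 0.05; the fit was tested on simulated data. Named genes are the 10 genes, the subunit pairs, Rela, called genes of each list or otherwise the 2 of smallest p, the 5 most alike, and called or defining markers. The genes and lists were chosen with earlier results of these data known. Alternatives covered left-out arrays, pairing, normalization, centring, dim genes, array weights, variance prior and row choice; the test of each row on its own was chosen after seeing the data.

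Same-numbered arrays had correlated deviations from their group means (0.368, 0.119 and 0.162, all over 0.1), so an alternative fit took the replicate number as a block. The main fit was unpaired, and so are the p-values given without naming the block. However, 2 pairs of different number had higher values than 2 of these (0.195 and 0.183), and the labels do not say what a number marks.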

Additional observations from a re-analysis of the deposited data

How the results depend on the processing

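Of the 10 genes, none passed limma with all 6 arrays, and 2 passed without wild-type replicate 1 (Psmb8 and Psme2), 2 with the dimmest of 3 equal groups of genes left out (the same genes) and 3 with array weights (with Psmb10). With the replicate number as a block none of them passed (lowest adjusted p = 0.069), and 372 of all genes did, against 163 without it; the block changed no call among the 10. Over all genes, 39 passed without replicate 1 of both groups, 104 with quantile normalization, 505 without the dimmest genes and 1599 with array weights, and from 21 to 929 without single arrays. Without one array at a time, from 0 to 2 of the 10 passed, and their median ran from 0.26 to 0.53. That median was 0.21 without replicate 1 of both groups, 0.16 with quantile and 0.14 with cyclic loess normalization. Centring arrays on their medians added 0.15 to every log2 fold change.

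Some signs turned. Without single arrays, Tap2 ran from -0.019 to 0.41, Tapbp from 0.094 to 0.50, B2m from -0.023 to 0.040 (below 0 without wild-type replicate 2 or knockout replicate 1), Adgre1 from -0.25 to 0.27, Psmb8 against Psmb5 from -0.044 to 0.14 and Psmb9 against Psmb6 from -0.077 to 0.043. Without replicate 1 of both groups Tap2 was -0.065, Tapbp -0.096, B2m -0.027 and Adgre1 0.22. With quantile normalization B2m was -0.082, Adgre1 0.14 and Psmb9 against Psmb6 0.014. With cyclic loess Tap2 was -0.073, B2m -0.16, Adgre1 0.14 and Psmb9 against Psmb6 0.0065. With array weights Tap2 was -0.026, B2m -0.015 and Adgre1 0.19. Adgre1 was 0.11 with centring, and Nlrc5 0.31 with its rows averaged. The cause of these turns was not tested.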
